A study of Danio rerio with 16 samples.

Results

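Cytochrome P450 genes, the cyp genes, were described in RNA sequencing libraries of zebrafish embryos, larvae and adult body parts. A gene was taken as a cytochrome P450 gene when its symbol in the deposited FPKM tables began with cyp, a family number and a subfamily letter, in either case, which gave 79 of the 32440 gene IDs listed. The symbols sorted them into 8 genes of steroid synthesis (families 11, 17, 19 and 21), 5 of retinoid breakdown or conversion (family 26 and cyp27c1), 3 of vitamin D metabolism, 13 of bile acid and sterol metabolism, 5 of family 1, 36 of family 2, 4 of family 3, 4 of family 4 and cyp20a1. Genes for P450 enzymes whose symbols have another form, such as cyp51, tbxas1 and ptgis, fall outside this rule. All libraries came from wild-type fish of the AB strain without treatment. The groups were whole embryos at 24 hours post fertilisation (hpf), as 3 biological samples, and 1 library each of a pool of whole embryos, of larvae at 5 days, of the entire adult head and of the entire adult tail. The pool is titled 16 to 36 hpf, while its stage label reads 16 somites to 24 hpf, so its age range is uncertain. The sources used here do not give the number of fish in each library or the age and sex of the adults.

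Cytochrome P450 enzymes are haem proteins that insert an oxygen atom into small lipophilic molecules. Some families make or break down signalling molecules. These include CYP11, CYP17 and CYP19 for steroid hormones, CYP26 for retinoic acid, CYP24 and CYP27B for vitamin D, and CYP7 and CYP8 for bile acids. Families 1 to 3 act mainly on foreign chemicals and fatty acids, largely in liver and gut, and family 4 hydroxylates fatty acids at their far end. Microsomal P450 enzymes draw electrons from P450 oxidoreductase (Por), and mitochondrial ones, such as the CYP11, CYP24 and CYP27 enzymes, draw them from ferredoxin.

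The libraries held between 40899061 and 44962951 reads counted on genes at 24 hpf and between 8017208 and 11045403 in the other groups. Levels are given as CPM, which are counts relative to the library total after scaling by trimmed mean of M values (TMM) factors. Where a gene has 0 counts its level was bounded at 3 counts, which is 0.273 CPM in the embryo pool, 0.304 in the larva, 0.315 in the adult head and 0.337 in the adult tail. Of the 79 members, 76 IDs are listed for 24 hpf and 74 passed the filter on low counts, and 3 (CYP11A1 (1 of 2), cyp2j20 and the ID now named cyp27c1) are listed only for the other 4 libraries. The gene models differ between the 24 hpf files and the others, and 23 members have the same interval in both. Stage and sequencing depth cannot be told apart in a comparison of 24 hpf with another group for any member. For the members without an equal interval the gene model cannot be told apart either. An equal interval means the same chromosome, start and end, and does not show that the exons are the same. In bulk RNA, fewer cells of a type and less RNA per cell cannot be told apart either.

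The labels were set against marker genes of the tissues. The adult head and the larva held neuronal markers at a summed 2376 and 1775 CPM over 10 genes, against 345 ± 40.5 at 24 hpf (mean ± SD, n = 3). The library labelled adult tail held 17 ovary and oocyte genes at a summed 2829 CPM, against 20.3 ± 3.58 at 24 hpf. The same genes summed to 7.34 CPM in the head. Of the 14 of these genes tested, 12 were higher in the tail than at 24 hpf, among them the oocyte growth factor genes gdf9 (43.0 CPM) and bmp15 (148 CPM), while figla stood at 0 counts in every library. Liver genes were present in all groups, and the liver fatty acid binding protein gene fabp10a had 0.588, 0.580 and 0.0283 CPM in the 3 samples at 24 hpf, 0.273 in the embryo pool, 108 in the larva, 201 in the adult head and 527 in the adult tail.

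More cytochrome P450 genes were higher than lower after 5 days and in the adult parts. Calls were made at an adjusted p under 0.05 by edgeR's quasi-likelihood test, adjusted after Benjamini and Hochberg over 21128 genes. In the larva 44 of the 74 members tested were called against 24 hpf, beside 49.6% of all genes tested, and 31 rose and 13 fell, beside 26.4% and 23.2% of all genes. In the head 50 were called, beside 62.1% of all genes, and 35 rose and 15 fell, beside 32.3% and 29.8%. In the tail 46 were called, beside 51.9% of all genes, and 32 rose and 14 fell, beside 25.4% and 26.5%. The falls in the larva, the head and the tail each include the ID read as cyp27c1 at 24 hpf, which is named ercc3 in the other files. The median log2 change of the members was 1.05 in the larva, 1.03 in the adult head and 1.42 in the adult tail, beside -0.02, -0.01 and -0.11 over all genes tested. The 4 comparisons share the samples of 24 hpf, and the spread of the single libraries is taken to be that of these samples. These medians of the larva, the head and the tail stay at the same values when genes at 0 counts in a group are set to their upper limit. All 3 samples of 24 hpf lay below the larva, the head and the tail in 33 of the tested members, against 22.2% of all genes, and above all 3 in 10, against 24.5%. The 10 are cyp26c1, the ID read as cyp27c1 at 24 hpf, cyp2aa3, cyp2aa4, cyp2aa8, cyp2aa9, cyp2x6, cyp2y3, cyp4t8 and cyp20a1. Among the 23 members with the same interval in both annotations, 13 rose and 3 fell in the larva, 15 rose and 4 fell in the head, and 9 rose and 2 fell in the tail. The shares over all genes of equal interval are not given here, so these counts describe the members alone.

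Few members were called between the 16-36 hpf pool and 24 hpf, while the median member was lower in the pool. The median log2 change of the 74 members tested was -0.79, beside -0.08 over all genes tested. It was -0.55 over the 64 members left when genes at 0 counts were set to their upper limit. All members summed to 602 CPM in the pool, against 1129 ± 244 at 24 hpf. CYP21A2 rose and cyp2aa3, cyp2aa8, cyp2p6, cyp2y3 and cyp3c1 fell, which is 6 of the 74 tested and below the share of all genes called, 11.9%, of which 6.32% were higher and 5.55% lower. CYP21A2 had 0.819 CPM in the pool, against 0.0840, 0.0276 and 0.0848 in the samples of 24 hpf, a log2 change of 3.53 (SE 0.93, edgeR adjusted p = 0.0476). The 5 lower genes had log2 changes between -1.92 (cyp2p6) and -1.17 (cyp2y3). Without sample 1 of 24 hpf 0 members were called by edgeR, without sample 2 also 0, and without sample 3 17. For cyp2y3 the edgeR adjusted p was 0.145 without sample 1 and 0.128 without sample 2. No member was called in every alternative analysis of the pool.

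**Figure D1:**
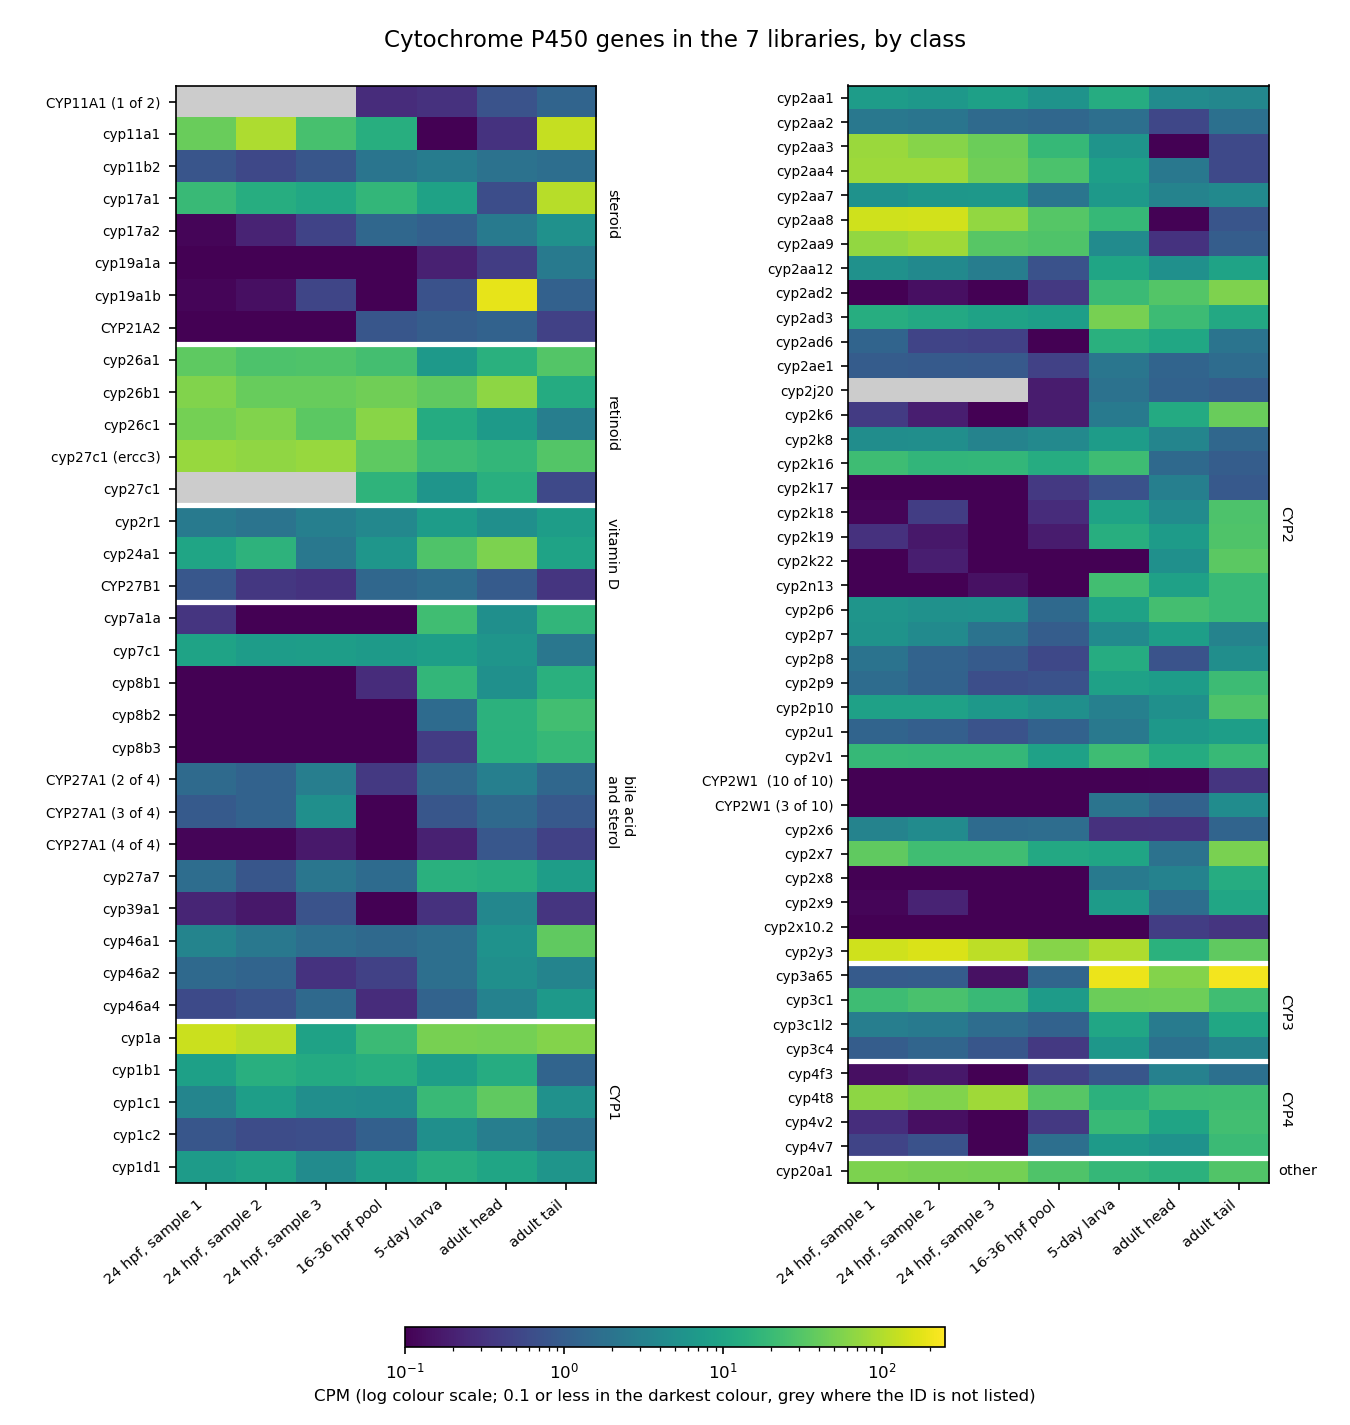
Level of each of the 79 cytochrome P450 genes (rows, grouped by class) in the 7 libraries (columns), as CPM on a log colour scale, with grey where a gene ID is not listed. The CYP8B genes and cyp3a65 are dark at 24 hpf and brighter in the adult parts, cyp19a1b is bright in the head, and 4 of the CYP2AA genes are bright at 24 hpf and dark in the adults.

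The 3 samples of 24 hpf were not alike for all members. Among the 28 members with a mean of at least 5 CPM at 24 hpf the median coefficient of variation was 18.8%, beside 16.1% over all 12361 such genes. It exceeded 50% for cyp1a, cyp24a1 and cyp11a1, which is 3 of 28, against 2.70% of all such genes. Sample 3 was the lowest for 16 of the 28, against 31.4% of all such genes. It was also the lowest for the liver genes, whose summed levels were 4299.8, 4409 and 2281 CPM in samples 1, 2 and 3. The part of this difference in the members' values was not tested.

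Among the genes of steroid synthesis, cyp19a1b was highest in the adult head, and cyp11a1, cyp17a1 and cyp19a1a were highest in the adult tail. Aromatase converts androgens to oestrogens, and zebrafish have a brain form, cyp19a1b (ENSDARG00000009852, chromosome 25, 4903096 to 4916762 on Zv9), which is known from radial glia, and an ovarian form, cyp19a1a. For cyp19a1b there were 0.112, 0.138 and 0.509 CPM in the 3 samples at 24 hpf, 0 in the embryo pool, 0.709 in the larva, 189 in the adult head and 1.12 in the adult tail. The head stood far above every other library, and the log2 change in the head relative to 24 hpf was 9.51 (SE 0.53, edgeR adjusted p = 2.41e-05). The head level was 168-fold (exact 95% counting interval 91.0 to 350.2) above the tail and 266-fold (exact 95% counting interval 129 to 662) above the larva, where the gene models are the same. The larva and the tail were not called against 24 hpf (edgeR adjusted p = 0.245 and 0.0818). In the head the 10 glial markers summed to 3119 CPM, against 1136 ± 50.2 at 24 hpf, while gfap, a marker of radial glia, fell in the head to 37.2 CPM, against 292 ± 88.8 at 24 hpf (edgeR adjusted p = 0.000980). The part of glial RNA in the cyp19a1b level was not tested.

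The ovarian aromatase cyp19a1a was scarce everywhere and highest in the tail. It had 0.0560, 0.0552 and 0 CPM in the 3 samples at 24 hpf, 0.0910 in the embryo pool, 0.203 in the larva, 0.420 in the adult head and 2.47 in the adult tail, which rests on 22 counts in the tail and at most 4 in each other library. Its log2 change in the tail was 5.84 (SE 0.86, edgeR adjusted p = 0.000621), and the head (edgeR adjusted p = 0.0615) was not called.

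The gene for the first step of steroid synthesis, cyp11a1 (ENSDARG00000002347, chromosome 25, 23043278 to 23058622), which cuts the side chain off cholesterol, was high in embryos and in the tail and nearly absent in the larva and the head. It had 42.0, 95.8 and 25.8 CPM in the 3 samples at 24 hpf, 13.5 in the embryo pool, 0.101 in the larva, 0.315 in the adult head and 126 in the adult tail. The 3 samples of 24 hpf spanned a 3.72-fold range, below the tail and above the larva and the head. The level was 541-fold (exact 95% counting interval 97.1 to 21374) lower in the larva, on 1 count, and 174-fold (exact 95% counting interval 59.6 to 845) lower in the head, on 3 counts, than at 24 hpf. Both falls were called by edgeR (adjusted p = 0.00226 and 0.00175), and neither by limma-voom, where the adjusted p was 0.137 and 0.10. The tail lay above all 3 samples of 24 hpf but the change, 1.21 (SE 0.60, edgeR adjusted p = 0.129), was not called. A neighbouring ID, CYP11A1 (1 of 2), lies on the same chromosome at 23020025 to 23034650 and held 3, 3, 7 and 11 counts in the pool, larva, head and tail. Non-unique alignments are held apart from the gene counts, so reads shared between the copies may be missing and the level of each is uncertain. Of the counts on genes and those held apart together, non-unique alignments made up 21.1%, 14.2% and 27.6% in the 3 samples at 24 hpf. The share was 23.4% in the embryo pool, 24.9% in the larva, 30.2% in the adult head and 39.6% in the adult tail. The part of this difference in the levels of gene copies was not tested.

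Farther along the pathway, cyp17a1 (ENSDARG00000033566, chromosome 13, 28824796 to 28834567), which makes 17-hydroxylated steroids and androgens, followed the same order between the adult parts. It had 20.1, 13.1 and 10.7 CPM in the 3 samples at 24 hpf, 17.8 in the embryo pool, 9.02 in the larva, 0.629 in the adult head and 107 in the adult tail. The tail was above and the head below all 3 samples of 24 hpf. Its log2 change was -4.53 (SE 0.66, edgeR adjusted p = 0.000983) in the head and 2.86 (SE 0.35, edgeR adjusted p = 0.000636) in the tail, and the larva was not called (edgeR adjusted p = 0.211). Head against tail, cyp11a1 was 401-fold (exact 95% counting interval 137 to 1949.6) lower and cyp17a1 169-fold (exact 95% counting interval 77.5 to 462) lower in the head. The related cyp17a2, a fish gene for a 17-hydroxylase, rose in both, to 2.41 CPM in the head and 5.29 in the tail, against 0.112, 0.221 and 0.480 at 24 hpf, with log2 changes of 3.13 and 4.26 (edgeR adjusted p = 0.0103 and 0.00184).

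The corticosteroid genes stayed low. CYP21A2, whose enzyme makes precursors of cortisol, had 0.0840, 0.0276 and 0.0848 CPM in the 3 samples at 24 hpf, 0.819 in the embryo pool, 1.01 in the larva, 1.15 in the adult head and 0.45 in the adult tail, and rose in the larva by 3.84 and in the head by 4.03 on the log2 scale (edgeR adjusted p = 0.00970 and 0.00503). These levels rest on 9 to 11 counts in the pool, the larva and the head. cyp11b2, listed as cyp11c1 in a current name table and coding for the 11-hydroxylase of cortisol synthesis, had 0.784, 0.552 and 0.819 CPM in the 3 samples at 24 hpf, 2.09 in the embryo pool, 2.63 in the larva, 1.89 in the adult head and 1.69 in the adult tail. Its rise in the larva, 1.87 (SE 0.56, edgeR adjusted p = 0.0276), was not called without sample 1 (edgeR adjusted p = 0.0625) or without sample 2 (edgeR adjusted p = 0.0684).

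**Figure D2:**
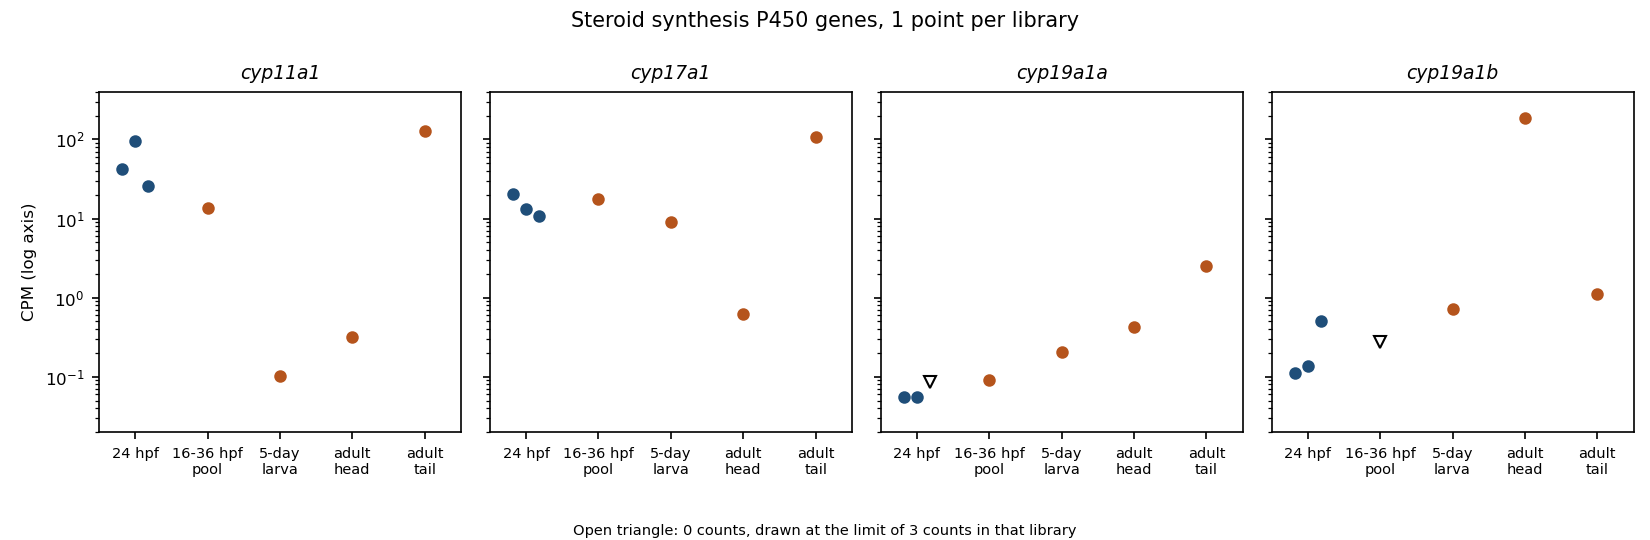
Levels of cyp11a1, cyp17a1, cyp19a1a and cyp19a1b in CPM on a log axis, with 1 point per library, in blue for the 3 samples of 24 hpf and in orange for the single libraries, and open triangles for 0 counts at the limit of 3 counts. The head is the highest group for cyp19a1b (189 CPM) and among the lowest for cyp11a1 and cyp17a1, which are highest in the tail (126 and 107 CPM).

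Other genes of steroid synthesis and response were examined beside these enzymes. Of the 23 gene IDs of steroid synthesis tested, 8 rose and 6 fell in the larva, 8 rose and 7 fell in the head, and 11 rose and 4 fell in the tail, with median log2 changes of -0.44, 0.43 and 1.65. The counts of this list and of those that follow are to be read beside all genes tested, of which 26.4% rose and 23.2% fell in the larva, 32.3% rose and 29.8% fell in the head, and 25.4% rose and 26.5% fell in the tail. In the head 8 and 7 of 23 are close to those shares. hsd3b1, whose enzyme acts next after cyp11a1, had 9.71, 14.3 and 3.31 CPM in the 3 samples at 24 hpf, 4.37 in the embryo pool, 0.405 in the larva, 0.105 in the adult head and 29.9 in the adult tail, and fell in the larva and the head (edgeR adjusted p = 0.0212 and 0.0106). star, which brings cholesterol to cyp11a1, rose instead in all 3, to 6.58 CPM in the larva, 15.9 in the adult head and 8.89 in the adult tail, against 1.23, 0.469 and 0.678 at 24 hpf. hsd11b2, which inactivates cortisol, was at 258 CPM in the head, against 3.53, 2.43 and 1.92 at 24 hpf, a log2 change of 6.61 (edgeR adjusted p = 1.61e-05). Of the 7 steroid receptor genes, 7 rose in the head, 6 in the tail and 1 in the larva. The androgen receptor gene ar reached 41.7 CPM in the head and 19.9 in the tail, against 3.30, 2.87 and 2.32 at 24 hpf, and the oestrogen receptor gene esr1 reached 8.81 and 21.1, against 0.532, 0.635 and 0.424.

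Markers of steroid-making cells rose in the tail and were mixed in the larva and the head. The 8 markers summed to 24.2 CPM in the larva, 29.6 in the adult head and 79.2 in the adult tail, against 48.5 ± 4.75 at 24 hpf, and 5 of the 7 tested rose in the tail, while 2 rose and 2 fell in the larva and likewise in the head. The list holds star, which rose, and hsd3b1, which fell, in both. inha, the inhibin subunit of gonadal support cells, had 5.29 CPM in the tail and 0 counts in the pool, the larva and the head. The receptor gene of interrenal cells, mc2r, had 1 count over the 3 libraries of 24 hpf, none in the pool or the larva, 2 in the adult head and 5 in the adult tail. With the oocyte genes given above, and amh, gsdf and insl3 at 11.9, 29.7 and 6.07 CPM, the tail held genes known from the gonads. The last 3 are from a list of 7 testis markers, which summed to 159 CPM in the tail, against 40.2 ± 5.82 at 24 hpf. Of the 6 testis markers tested, 5 rose and 1 fell in the tail. The part of gonad RNA in the tail levels of cyp11a1, cyp17a1 and cyp19a1a was not tested.

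The CYP26 enzymes, which break down retinoic acid and so set where this signal acts in the embryo, were all expressed at 24 hpf and differed in order in the adult parts. Their sum was 124 ± 18.2 CPM at 24 hpf, 133 in the embryo pool, 56.2 in the larva, 88.3 in the adult head and 45.8 in the adult tail. cyp26a1 (ENSDARG00000033999, chromosome 12, 9708962 to 9712555) had 36.1, 28.0 and 28.8 CPM in the 3 samples at 24 hpf, 24.2 in the embryo pool, 6.99 in the larva, 14.5 in the adult head and 30.6 in the adult tail. It was below all 3 samples of 24 hpf in the larva and the head and within their range in the tail. The log2 change was -2.15 (SE 0.35, edgeR adjusted p = 0.00258) in the larva, -1.10 (SE 0.32, edgeR adjusted p = 0.0204) in the head and -0.02 (SE 0.30, edgeR adjusted p = 0.966) in the tail. The fall in the head was not called without sample 1 (edgeR adjusted p = 0.0618).

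cyp26b1 (ENSDARG00000077121, chromosome 7, 26490838 to 26515694) had 56.1, 40.6 and 41.2 CPM in the 3 samples at 24 hpf, 45.7 in the embryo pool, 37.0 in the larva, 66.8 in the adult head and 12.4 in the adult tail. The head was above and the larva and the tail below the samples of 24 hpf, but only the tail was called, with a log2 change of -1.89 (SE 0.35, edgeR adjusted p = 0.00356). In the larva and the head the edgeR adjusted p was 0.420 and 0.141. cyp26c1 (ENSDARG00000056029, chromosome 17, 19353008 to 19365481) had 49.3, 56.9 and 35.3 CPM in the 3 samples at 24 hpf, 63.1 in the embryo pool, 12.3 in the larva, 7.03 in the adult head and 2.81 in the adult tail, and each later group lay below all 3 samples of 24 hpf. The log2 changes were -1.94 (SE 0.38, edgeR adjusted p = 0.00557) in the larva, -2.75 (SE 0.41, edgeR adjusted p = 0.00115) in the head and -4.07 (SE 0.47, edgeR adjusted p = 0.000475) in the tail. On FPKM with limma the larval change was not called (adjusted p = 0.0626). Within the head cyp26b1 was the highest of the 3 and within the tail cyp26a1 was, also per length, at 17 FPKM in the head and 13.2 FPKM in the tail. Head against tail, cyp26b1 was 5.40-fold (exact 95% counting interval 4.40 to 6.67) higher in the head.

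**Figure D3:**
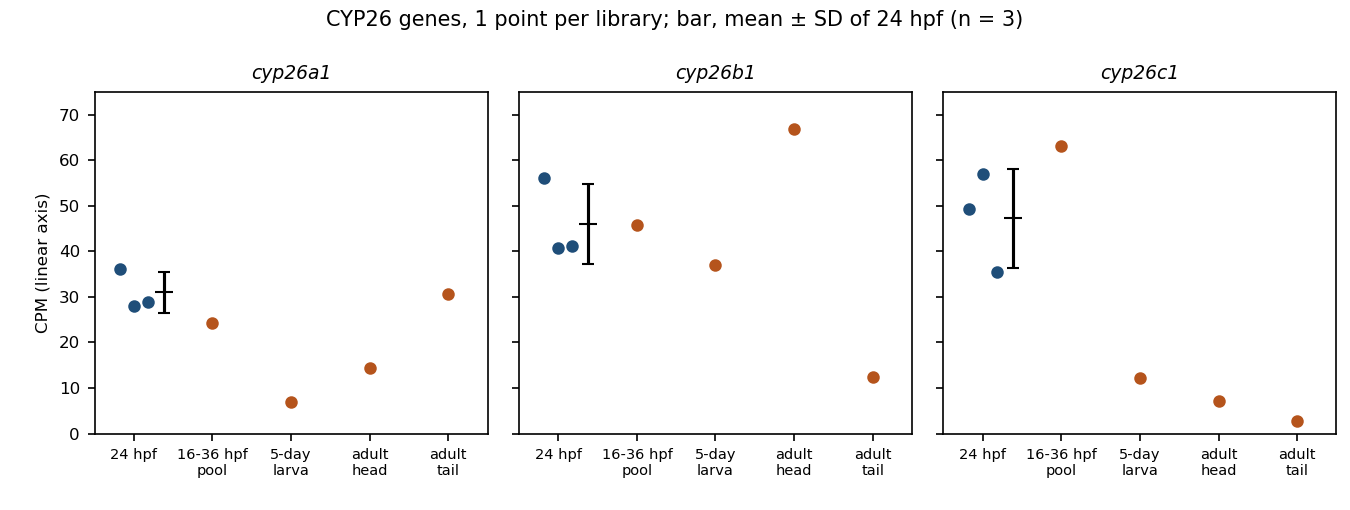
Levels of cyp26a1, cyp26b1 and cyp26c1 in CPM on a linear axis, with 1 point per library and a bar for the mean ± SD of the 3 samples of 24 hpf. cyp26c1 is lowest in the tail (2.81 CPM), cyp26a1 in the larva (6.99 CPM) and cyp26b1 in the tail (12.4 CPM).

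The gene cyp27c1, which in zebrafish converts vitamin A1 to vitamin A2 in the eye, could not be compared with 24 hpf. The ID ENSDARG00000002402 (chromosome 6, 8096616 to 8158547) bears the name cyp27c1 in the 24 hpf files but the name ercc3, a DNA repair gene, in the others, and it overlaps ENSDARG00000092660 (8144748 to 8158549), which is named cyp27c1 there. The first ID had 75.3, 67.5 and 75 CPM at 24 hpf, 35.7 in the embryo pool, 21.2 in the larva, 17.9 in the adult head and 31 in the adult tail, and reads of either gene may be in it. The second had 16.3 CPM in the embryo pool, 5.88 in the larva, 14.1 in the adult head and 0.562 in the adult tail. It was 25-fold (exact 95% counting interval 10.4 to 78.2) higher in the head than in the tail.

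Of 43 other genes of retinoid metabolism and signalling, all tested, 15 rose and 11 fell in the larva, 19 and 13 in the head and 10 and 17 in the tail, with median log2 changes of 0.47, 0.86 and -0.71. rdh10b, which makes retinal, the precursor of retinoic acid, reached 367 CPM in the tail, against 37.6, 47.8 and 30.8 at 24 hpf, and was below 24 hpf in the larva (7.90 CPM) and the head (11.1 CPM). The plasma retinol carrier gene rbp4, also a liver marker, had 661 CPM in the larva, 829 in the adult head and 459 in the adult tail, against 356, 208 and 190.0 at 24 hpf, and rose in the larva and the head. The gene of the visual cycle enzyme rdh5 had 20.1 and 32.5 CPM in the larva and the head and 0 counts in the tail, against 5.57, 2.13 and 1.92 at 24 hpf.

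The vitamin D genes were led by cyp24a1, which inactivates the hormone. It had 9.91, 15.5 and 2.29 CPM in the 3 samples at 24 hpf, 6.01 in the embryo pool, 29.2 in the larva, 53.9 in the adult head and 9.22 in the adult tail. The larva and the head lay above all 3 samples of 24 hpf, which themselves spanned 6.77-fold. The larva was not called. In the head the log2 change was 2.55 (SE 0.75, edgeR adjusted p = 0.0206), and it was not called without sample 1 (edgeR adjusted p = 0.0676) nor in limma-voom (adjusted p = 0.0705). The head was 5.84-fold (exact 95% counting interval 4.62 to 7.47) above the tail. cyp2r1, a first-step hydroxylase of vitamin D, had 2.41, 2.04 and 2.94 CPM in the 3 samples at 24 hpf, 3.82 in the embryo pool, 7.50 in the larva, 4.93 in the adult head and 7.87 in the adult tail. It rose in the larva and the tail, with log2 changes of 1.60 and 1.67 (edgeR adjusted p = 0.0157 and 0.0126), the first of which was not called without sample 1 or sample 2 (edgeR adjusted p = 0.0556 and 0.0525). CYP27B1, which makes the active hormone, stayed at or under 1.62 CPM and was called in no comparison.

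Of 12 other vitamin D genes tested, 8 rose and none fell in the larva, 7 rose and 1 fell in the head, and 4 rose and 3 fell in the tail. The plasma vitamin D binding protein gene gc had 26, 13.8 and 25.5 CPM in the larva, head and tail, against 0.476, 0.331 and 0.0283 at 24 hpf. The calcium binding protein gene calb2a had 68.7 and 52.4 CPM in the larva and the head but 0.225 in the tail, against 2.97, 2.1 and 2.54 at 24 hpf.

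Of the genes of bile acid synthesis, cyp7a1a and cyp8b1 were close to absent at 24 hpf and present in the larva and the adult parts. cyp7a1a (ENSDARG00000069018, chromosome 2, 21946656 to 21949389), coding for the rate-limiting enzyme, had 0.336, 0.0552 and 0 CPM in the 3 samples at 24 hpf, 0 in the embryo pool, 22.6 in the larva, 4.93 in the adult head and 17.1 in the adult tail. The larva was the highest library and the 3 later groups all lay above 24 hpf, with log2 changes of 7.37 (SE 0.74, edgeR adjusted p = 0.000386), 5.18 (SE 0.86, edgeR adjusted p = 0.00182) and 6.97 (SE 0.75, edgeR adjusted p = 0.000364) in larva, head and tail. In the head the call was lost with DESeq2 (adjusted p = 0.0999). cyp8b1 (ENSDARG00000053068, chromosome 2, 3930185 to 3932157), whose enzyme adds the hydroxyl group that distinguishes cholic acid, had 0 counts in all 3 samples of 24 hpf and 3 in the pool. It had 17.7 CPM in the larva, 5.14 in the adult head and 14.3 in the adult tail, which is at least 634-fold, 184-fold and 511-fold higher than the limit of 3 counts over the 24 hpf libraries together (edgeR adjusted p = 0.000329, 0.000524 and 0.000268).

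The 2 copies beside cyp8b1 on chromosome 2, cyp8b2 and cyp8b3, were low in the larva and higher in the adult parts. cyp8b2 had 0.0280, 0.0828 and 0.0565 CPM in the 3 samples at 24 hpf, 0 in the embryo pool, 1.52 in the larva, 15.2 in the adult head and 23.6 in the adult tail. cyp8b3 had 0.0560, 0.0276 and 0 CPM in the 3 samples at 24 hpf, 0 in the embryo pool, 0.405 in the larva, 14.8 in the adult head and 19 in the adult tail. All 3 copies rose in the larva, the head and the tail, but cyp8b1 stood at its highest in the larva, where cyp8b2 and cyp8b3 were low. The larva was 1.24-fold (exact 95% counting interval 0.98 to 1.57) above the tail for cyp8b1, so these 2 libraries may be equal. Head against larva, cyp8b2 was 10.01-fold (exact 95% counting interval 5.87 to 18.3) and cyp8b3 36.5-fold (exact 95% counting interval 13.9 to 136) higher, while cyp8b1 was 3.45-fold (exact 95% counting interval 2.5 to 4.84) lower. The rise of cyp8b3 in the larva, on 4 counts, was not called without sample 2 (edgeR adjusted p = 0.108). All 3 keep 1 interval across the annotations, within 34.1 kb, and reads shared among the copies make each level uncertain.

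Of the sterol 27-hydroxylase genes, cyp27a7 had 1.65, 0.801 and 2.15 CPM in the 3 samples at 24 hpf, 1.55 in the embryo pool, 14.4 in the larva, 12.9 in the adult head and 7.76 in the adult tail, and rose with log2 changes of 3.23, 3.07 and 2.34 in larva, head and tail (edgeR adjusted p = 0.00206, 0.00171 and 0.00977). The other 3 copies beside it on chromosome 9 stayed under 5 CPM in every library, and of these CYP27A1 (4 of 4) rose in the head, to 0.839 CPM, on 8 counts. It fell under the filter on low counts without any one sample of 24 hpf. CYP27A1 (2 of 4) and CYP27A1 (3 of 4) were called in no comparison, and in sample 3 of 24 hpf they had 2.83 and 4.86 CPM. Among the cholesterol 24-hydroxylase genes, whose mammalian counterpart clears cholesterol from the brain, cyp46a1 had 3.39, 2.29 and 1.67 CPM in the 3 samples at 24 hpf, 1.46 in the embryo pool, 1.72 in the larva, 5.45 in the adult head and 37.6 in the adult tail. Its tail level stood above every other library (log2 change 3.94, SE 0.41, edgeR adjusted p = 0.000313), and the head was not called (edgeR adjusted p = 0.0749). cyp46a4 rose in both adult parts, to 3.25 CPM in the head and 6.75 in the tail, against 0.588, 0.718 and 1.47 at 24 hpf, and cyp46a2 in the head, to 4.93 CPM, against 1.46, 1.24 and 0.311. Both head calls were lost without sample 2 (edgeR adjusted p = 0.111 for cyp46a4 and 0.0661 for cyp46a2), and that of cyp46a4 also without sample 1 (edgeR adjusted p = 0.102). cyp39a1, coding for an oxysterol hydroxylase in mammals, had 3.78 CPM in the head, against 0.337 in the tail and 0.224, 0.166 and 0.735 at 24 hpf, a log2 change of 3.32 (SE 0.77, edgeR adjusted p = 0.00804) in the head that was not called with DESeq2 (adjusted p = 0.0752). The only fall in the class was cyp7c1, named CYP7B1 in the current name table, with 9.24, 7.48 and 7.71 CPM in the 3 samples at 24 hpf, 7.19 in the embryo pool, 8.10 in the larva, 5.98 in the adult head and 2.25 in the adult tail (log2 change in the tail -1.85, SE 0.46, edgeR adjusted p = 0.0134).

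**Figure D4:**
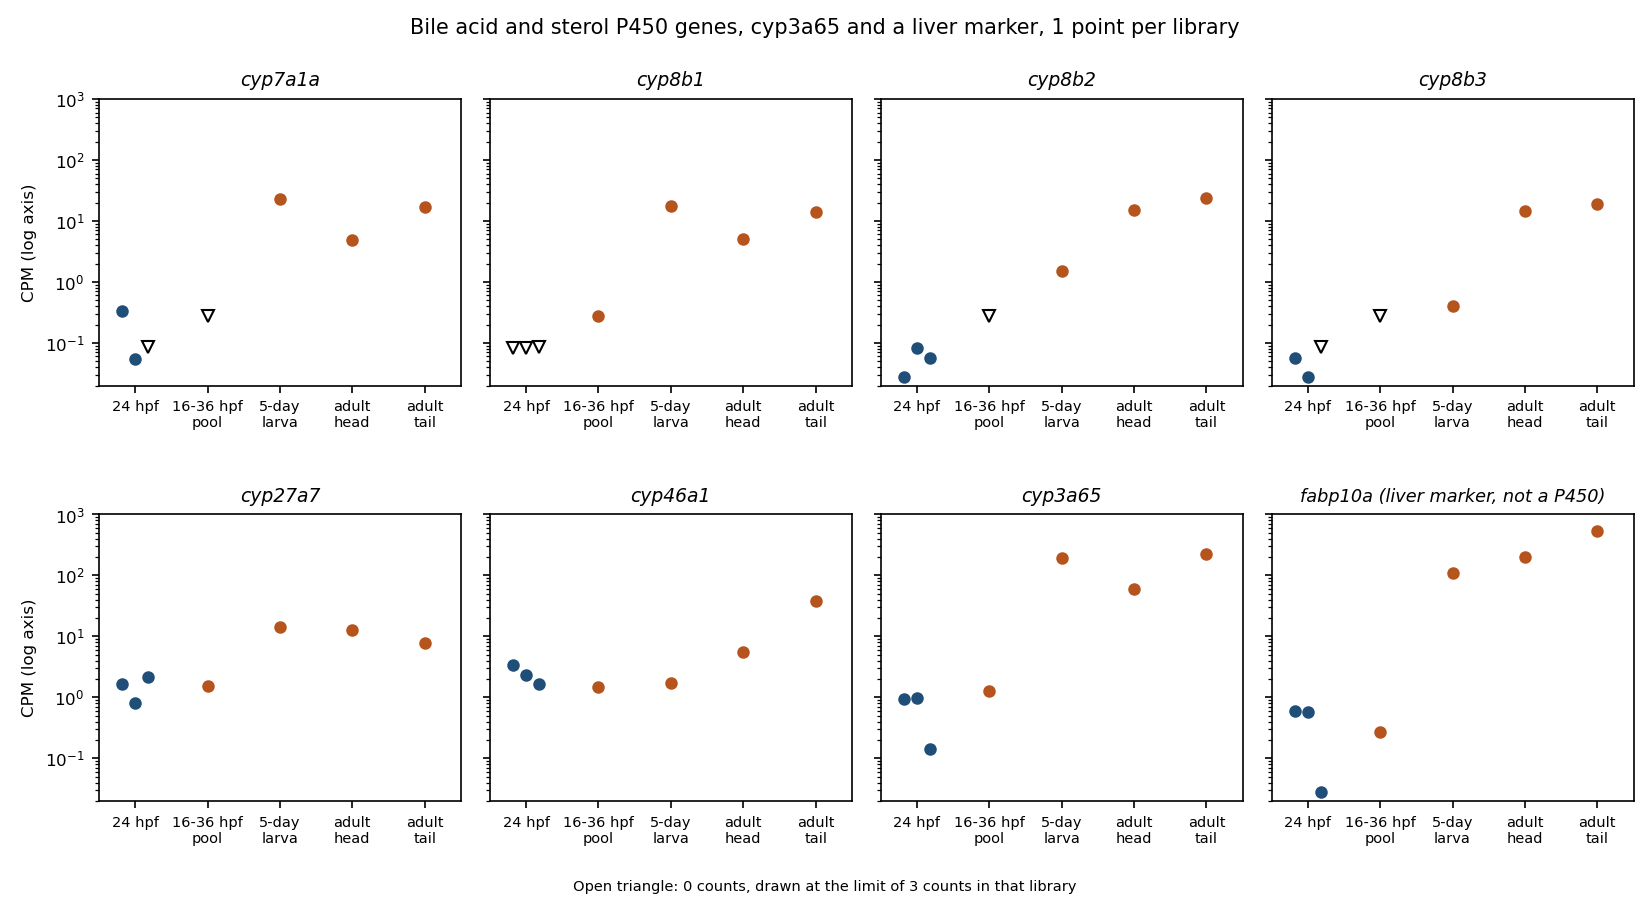
Levels of 6 bile acid and sterol genes, of cyp3a65 and of the liver marker fabp10a in CPM on a log axis, with 1 point per library and open triangles for 0 counts at the limit of 3 counts. cyp7a1a, cyp8b1, cyp3a65 and fabp10a all lie above 24 hpf in the larva, the head and the tail, while cyp8b2 and cyp8b3 have 1.52 and 0.405 CPM in the larva and 15.2 and 14.8 CPM in the head.

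Of the 35 other bile acid and cholesterol genes tested, 12 rose and 5 fell in the larva, 10 rose and 8 fell in the head, and 15 rose and 4 fell in the tail, with median log2 changes of 0.21, 0.27 and 0.09. The bile salt export pump gene abcb11b had 20.6, 6.92 and 22.9 CPM in the larva, head and tail, against 0.0280, 0.166 and 0 at 24 hpf. The bile acid receptor gene nr1h4 had 4.46, 0.839 and 6.30 CPM, against 0.252, 0.166 and 0.0848, and was called in the larva and the tail. The uptake transporter gene slc10a1 had 0.315 CPM in the head and 0 counts in the tail, against 4.90, 2.18 and 2.85 at 24 hpf, and fell in both. Among the 14 liver markers tested, 6 rose in the larva, 7 rose and 2 fell in the head, and 10 rose in the tail, with summed levels of 3108, 3329 and 6536 CPM, against 3663 ± 1198 at 24 hpf. Most of the 24 hpf sum was transferrin, tfa (2163 ± 772 CPM). The part of liver RNA in the levels of the bile acid genes was not tested.

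Family 1 holds the P450 genes best known as targets of the aryl hydrocarbon receptor. cyp1a (ENSDARG00000026039, chromosome 18, 4974675 to 4985566), the usual marker of exposure to such chemicals, had 135, 111 and 9.04 CPM in the 3 samples at 24 hpf, 20.7 in the embryo pool, 51 in the larva, 48.7 in the adult head and 59.3 in the adult tail. Sample 3 lay below every other library and samples 1 and 2 above every other, so that the larva, the head and the tail fell inside the range of 24 hpf and no comparison was called (edgeR adjusted p = 0.317, 0.621, 0.568 and 0.727 for pool, larva, head and tail). cyp1c1 had 3.55, 8.04 and 4.83 CPM in the 3 samples at 24 hpf, 4.46 in the embryo pool, 20.3 in the larva, 37.0 in the adult head and 5.17 in the adult tail, and rose in the larva by 1.89 and in the head by 2.76 on the log2 scale (edgeR adjusted p = 0.0116 and 0.00138). The related cyp1c2 rose in the same groups, to 4.96 CPM in the larva and 2.83 in the head, against 0.812, 0.608 and 0.650 at 24 hpf. cyp1b1, which in vertebrates acts in eye development, had 8.48, 14.0 and 11.9 CPM in the 3 samples at 24 hpf, 13.6 in the embryo pool, 8.10 in the larva, 12.8 in the adult head and 1.24 in the adult tail, and fell in the tail (log2 change -3.21, SE 0.57, edgeR adjusted p = 0.00322). cyp1d1 was called in no comparison and ranged from 4.29 to 13.2 CPM.

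Of 45 other genes of chemical sensing and conjugation tested, 22 rose and 8 fell in the larva, 21 and 9 in the head and 18 and 12 in the tail, with median log2 changes of 1.10, 0.89 and 0.45. The receptor gene ahr2 had 125, 182 and 61.4 CPM in the larva, head and tail, against 36.0, 34.7 and 36.6 at 24 hpf, and rose in all 3. The glucuronosyltransferase gene ugt1ab had 127, 33.7 and 143 CPM, against 10.7, 4.28 and 2.06, with sample 3 again the lowest. The glutathione transferase gene gstp1 had 187, 188 and 159.5 CPM, against 115, 64.1 and 82.2 at 24 hpf (edgeR adjusted p = 0.0287, 0.0222 and 0.0643).

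Family 2 is the largest, and genes lying side by side on a chromosome had different patterns. On chromosome 23, 8 genes of the fish subfamily CYP2AA and cyp2ae1 lie within 374 kb. They summed to 330.0 ± 102 CPM at 24 hpf, 117 in the embryo pool, 70.3 in the larva, 17.2 in the adult head and 23.3 in the adult tail. The sum rested on 4 genes. cyp2aa8 (ENSDARG00000090403, chromosome 23, 42910749 to 42919521) had 139.9, 149 and 70.6 CPM in the 3 samples at 24 hpf, 32.1 in the embryo pool, 18.6 in the larva, 0.105 in the adult head and 0.787 in the adult tail. cyp2aa4 had 79.5, 80.3 and 45.7 CPM in the 3 samples at 24 hpf, 26.9 in the embryo pool, 8.20 in the larva, 2.31 in the adult head and 0.562 in the adult tail. cyp2aa3 and cyp2aa9 averaged 60.2 ± 16.6 and 61 ± 25.2 CPM at 24 hpf (SD, n = 3) and had 5.77 and 4.36 in the larva. All 4 were above each later group in every sample of 24 hpf and fell in the larva, the head and the tail.

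In the head cyp2aa3 had 0 counts, which is at least 192-fold lower than at 24 hpf (edgeR adjusted p = 0.000108), and cyp2aa8 had 1 count, 1144-fold (exact 95% counting interval 205 to 45189) lower. cyp2aa9 had 3 counts there, 194-fold (exact 95% counting interval 66.5 to 943) lower, and cyp2aa4 fell in the head by 4.89 on the log2 scale. In the tail the 4 genes fell by 5.91 (cyp2aa9) to 7.24 (cyp2aa8), and in the larva by 2.68 (cyp2aa8) to 3.81 (cyp2aa9). The edgeR adjusted p of these 12 changes was at most 0.00475. Of the genes between and beside them, cyp2aa1, cyp2aa2, cyp2aa7 and cyp2ae1 were called in no comparison, and cyp2aa1, which lies between cyp2aa2 and cyp2aa9, had 7.64, 6.52 and 8.62 CPM in the 3 samples at 24 hpf, 5.55 in the embryo pool, 12.9 in the larva, 4.30 in the adult head and 3.71 in the adult tail. cyp2aa12 rose in the larva (10.03 CPM, against 5.29, 4.09 and 2.77 at 24 hpf), a call that was lost whichever of the 3 samples was left out (edgeR adjusted p from 0.0566 to 0.112). On FPKM with limma the log2 change of cyp2aa12 was -0.059 (adjusted p = 0.930). Of the 9 genes cyp2aa12 alone has the same interval in both annotations. Within the shared gene models, the tail was 23.7-fold (exact 95% counting interval 11.3 to 59.7) below the larva for cyp2aa8 and 14.6-fold (exact 95% counting interval 6.0 to 46.1) below it for cyp2aa4. The larva was less far below the pool within these models. It was 1.72-fold lower for cyp2aa8, 3.23-fold for cyp2aa3, 3.28-fold for cyp2aa4 and 6.58-fold for cyp2aa9. The part of the gene model in the falls from 24 hpf was not tested.

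On chromosome 20, 11 genes lie within 100.4 kb, which bear names of the CYP2AD, CYP2N, CYP2P, CYP2V and CYP2J subfamilies in one annotation and cyp2j21 to cyp2j30 in the 24 hpf files. CYP2J enzymes of mammals make epoxides of arachidonic acid. They summed to 50.4 ± 6.94 CPM at 24 hpf, 26.1 in the embryo pool, 170.3 in the larva, 132 in the adult head and 187 in the adult tail. Of the 10 tested, 6 rose and 1 fell in the larva, and in each adult part 6 rose. The largest increases were those of cyp2ad2 and cyp2n13. cyp2ad2 (ENSDARG00000021172, chromosome 20, 25564275 to 25571790) had 0.0840, 0.138 and 0.0848 CPM in the 3 samples at 24 hpf, 0.364 in the embryo pool, 20.6 in the larva, 31 in the adult head and 54.7 in the adult tail, and cyp2n13 had 0.0280, 0 and 0.141 CPM in the 3 samples at 24 hpf, 0 in the embryo pool, 23.1 in the larva, 8.92 in the adult head and 19.9 in the adult tail. Both lay below all later groups in every sample of 24 hpf, with log2 changes of 7.57, 8.16 and 8.98 for cyp2ad2 and 8.54, 7.17 and 8.33 for cyp2n13 in larva, head and tail (edgeR adjusted p at most 0.000111).

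Between them cyp2ad6 rose in the larva and the head, to 14.4 and 10.6 CPM, against 1.23, 0.497 and 0.452 at 24 hpf, but had 2.02 in the tail (edgeR adjusted p = 0.145). The gene cyp2ad3, which has the same interval in both annotations, peaked in the larva with 13.1, 11.1 and 9.07 CPM in the 3 samples at 24 hpf, 8.01 in the embryo pool, 50.6 in the larva, 21.6 in the adult head and 11.1 in the adult tail. Its rise in the larva was 2.19 (SE 0.30, edgeR adjusted p = 0.00123), and that in the head was lost without sample 2 or sample 3 (edgeR adjusted p = 0.0810 and 0.0597). cyp2v1, next to it, was called in no comparison with 24 hpf, with 19.1, 18.5 and 18.3 CPM in the 3 samples at 24 hpf, 8.83 in the embryo pool, 21.8 in the larva, 12.5 in the adult head and 19.6 in the adult tail. The pool and the head lay below all 3 samples of 24 hpf. Among the CYP2P genes, cyp2p6 was close in the adult parts and cyp2p10 was not: cyp2p6 had 24.2 CPM in the head and 19.8 in the tail, against 5.96, 5.22 and 5.37 at 24 hpf, whereas cyp2p10 had 5.14 in the head and 29.2 in the tail, against 8.68, 8.67 and 6.41. cyp2p9 rose in all 3 later groups, to 8.81, 7.55 and 21.5 CPM, against 1.57, 1.19 and 0.650. cyp2p8 rose in the larva, to 12.7 CPM, against 1.99, 1.22 and 0.932 at 24 hpf, and was at 0.734 in the head. It also rose in the tail, to 4.72 CPM, a call lost without sample 2 (edgeR adjusted p = 0.0877). cyp2p10 fell in the larva, to 3.04 CPM, a call lost without sample 1 or sample 2 (edgeR adjusted p = 0.0868 and 0.0867). On FPKM with limma the log2 change of cyp2p10 was -0.70 (adjusted p = 0.248). cyp2p7 was called in no comparison, and cyp2j20, listed only for the other 4 libraries, had 0.182 CPM in the embryo pool, 1.92 in the larva, 1.15 in the adult head and 1.01 in the adult tail.

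On chromosome 3, 8 genes named CYP2K or CYP2W1 lie between 12440710 and 12556748, and cyp2k22 lies apart at 8814256 to 8831106. They summed to 23.9 ± 3.20 CPM at 24 hpf, 17.8 in the embryo pool, 57.8 in the larva, 37.8 in the adult head and 142 in the adult tail. cyp2k16 was the embryonic and larval one, with 22, 17.1 and 17.9 CPM in the 3 samples at 24 hpf, 12.8 in the embryo pool, 22.2 in the larva, 1.47 in the adult head and 1.01 in the adult tail. It fell in the head by 3.69 and in the tail by 4.22 on the log2 scale (edgeR adjusted p = 0.000528 and 0.000524), and the larva was not called (edgeR adjusted p = 0.587). The genes that rose were highest in the tail except cyp2k17, which was highest in the head (2.94 CPM, with 2 counts over the 24 hpf libraries). cyp2k6 had 0.392, 0.193 and 0 CPM in the 3 samples at 24 hpf, 0.182 in the embryo pool, 2.53 in the larva, 11.9 in the adult head and 42.3 in the adult tail. cyp2k22 had 0.0280, 0.193 and 0 CPM in the 3 samples at 24 hpf, 0 in the embryo pool, 0.101 in the larva, 5.14 in the adult head and 35.2 in the adult tail. The 2 shared low levels in embryos, and cyp2k22 was also at 1 count in the larva. cyp2k18 and cyp2k19 were already at 9.22 and 13.6 CPM in the larva and at 27.8 and 28.6 in the tail, against means of 0.194 ± 0.193 and 0.167 ± 0.140 at 24 hpf (SD, n = 3). In the tail the log2 changes of cyp2k6, cyp2k18, cyp2k19 and cyp2k22 were 7.71, 7.11, 7.36 and 8.77 (edgeR adjusted p at most 0.000169). CYP2W1 (3 of 10) rose in the larva, the head and the tail, to 2.03, 1.15 and 4.5 CPM. cyp2k8 fell in the tail to 1.35 CPM, against 4.62, 4.72 and 3.33 at 24 hpf, which was not called without sample 1 or sample 2 (edgeR adjusted p = 0.103 and 0.104). On FPKM with limma its log2 change was -0.13 (adjusted p = 0.789).

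**Figure D5:**
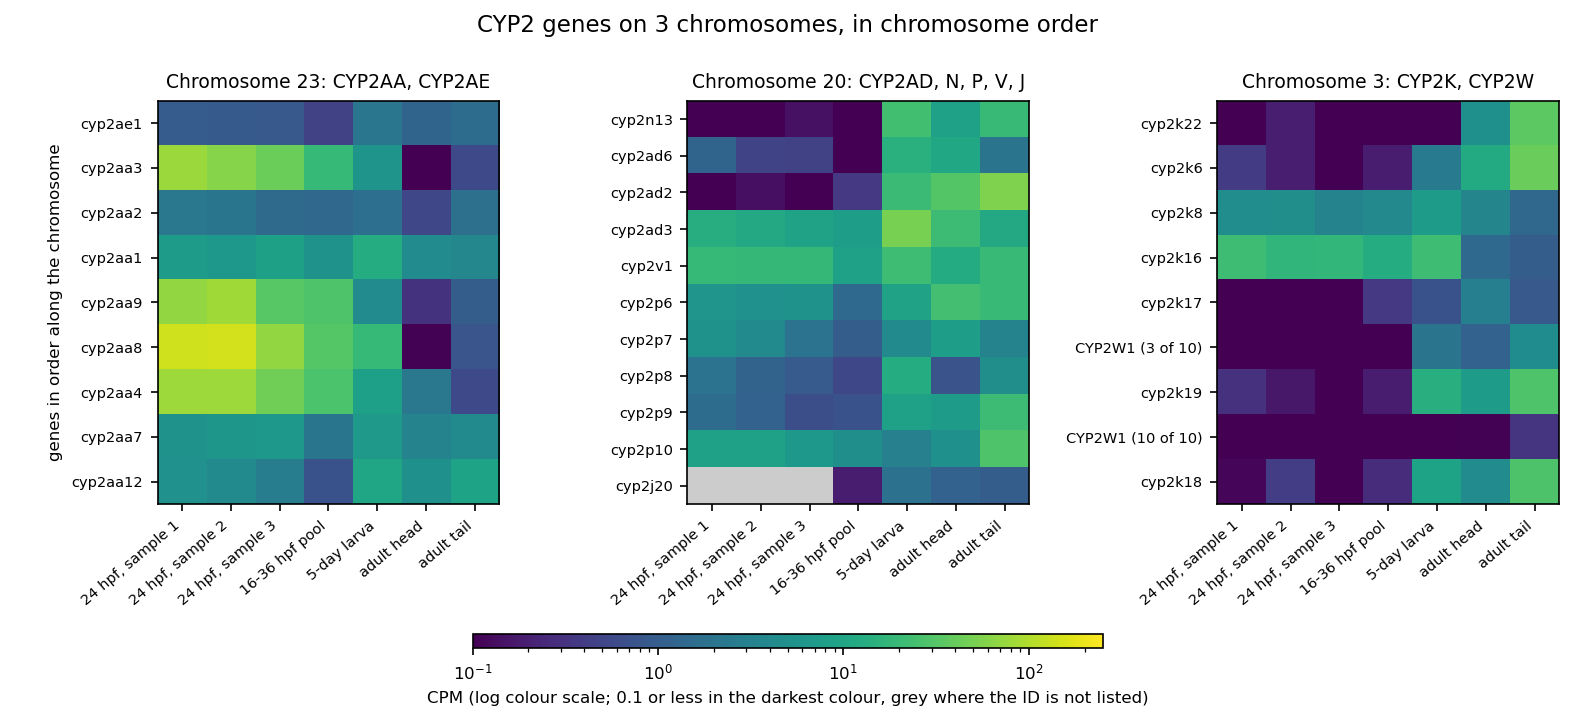
Levels of the CYP2 genes on chromosomes 23, 20 and 3 in the 7 libraries, as CPM on a log colour scale, with the genes in order along each chromosome and grey where an ID is not listed. On chromosome 23 the genes bright at 24 hpf (cyp2aa3, cyp2aa9, cyp2aa8 and cyp2aa4) stand beside genes that were not called lower than at 24 hpf in any group. On chromosome 3 cyp2k16 is lower in the adult parts than at 24 hpf, while cyp2k6, cyp2k19 and cyp2k18 are higher there.

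On chromosome 25 the annotated interval of cyp2x8 spans those of cyp2x6 and cyp2x7. Reads that overlap several of these genes may therefore be missing from the counts. The 4 CYP2X genes there keep their intervals across the annotations. cyp2x7 had 36.7, 22.5 and 23 CPM in the 3 samples at 24 hpf, 11.2 in the embryo pool, 9.83 in the larva, 1.89 in the adult head and 51.3 in the adult tail. The tail was above all samples of 24 hpf but was not called (log2 change 0.90, SE 0.35, edgeR adjusted p = 0.0657). The larva and the head were lower, with log2 changes of -1.48 and -3.86 (edgeR adjusted p = 0.0227 and 0.000759). Head against tail it was 27.2-fold (exact 95% counting interval 17 to 46.3) lower. cyp2x8 and cyp2x9 rose in all 3 later groups, with cyp2x8 at 2.53, 3.25 and 12.8 CPM, against 0.0280, 0.0276 and 0 at 24 hpf. cyp2x6 fell in the larva and the head to 0.304 and 0.315 CPM, against 3.36, 4.36 and 1.55, and both calls were lost without sample 1 (edgeR adjusted p = 0.0834 and 0.0718) or sample 2 (edgeR adjusted p = 0.0890 and 0.0772).

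cyp2y3, a gene of a fish subfamily with the same interval in both annotations (ENSDARG00000007173, chromosome 15, 65143 to 71354), was among the most abundant members before adulthood. It had 141, 159 and 115 CPM in the 3 samples at 24 hpf, 61.3 in the embryo pool, 96.9 in the larva, 14.8 in the adult head and 37.6 in the adult tail. Both adult parts lay below all other libraries, with log2 changes of -3.22 (SE 0.35, edgeR adjusted p = 0.000282) in the head and -1.88 (SE 0.32, edgeR adjusted p = 0.00245) in the tail, and the larva was not called (edgeR adjusted p = 0.173). cyp2u1, a fatty acid hydroxylase gene in humans, rose in the adult parts to 6.5 CPM in the head and 8.10 in the tail, against 1.26, 1.08 and 0.735 at 24 hpf. CYP2W1 (10 of 10) and cyp2x10.2 were too low to test, with 5 and 15 counts over all libraries.

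Family 3 holds the chief drug-metabolising enzymes of the vertebrate liver and gut. cyp3a65 (ENSDARG00000045627, chromosome 1, 60208633 to 60218577), with the same interval in both annotations, had 0.952, 0.966 and 0.141 CPM in the 3 samples at 24 hpf, 1.27 in the embryo pool, 196 in the larva, 59.3 in the adult head and 221 in the adult tail. The larva, the head and the tail all stood far above 24 hpf and the pool. Their log2 changes were 8.14 (SE 0.62, edgeR adjusted p = 0.000133), 6.42 (SE 0.60, edgeR adjusted p = 0.000156) and 8.32 (SE 0.62, edgeR adjusted p = 7.44e-05). Larva against pool it was 154-fold (exact 95% counting interval 91.4 to 282) higher. The same groups were high for the liver marker fabp10a and for the intestinal peptide transporter gene slc15a1b, which had 48.7, 19.8 and 60.2 CPM in larva, head and tail, against 0.745 ± 0.139 at 24 hpf (SD, n = 3). The summed level of the 7 intestinal markers was lower later, at 628, 119 and 809.6 CPM, against 1347 ± 214, but the single genes did not all fall. Of the 7, 4 rose and 2 fell in the larva, 3 rose and 3 fell in the head, and 4 rose and 1 fell in the tail. Their median log2 changes were 3.65, 0.79 and 3.98. The part of liver and gut RNA in the cyp3a65 level was not tested. cyp3c1 had 22.2, 26.4 and 19.9 CPM in the 3 samples at 24 hpf, 7.28 in the embryo pool, 42.6 in the larva, 44.9 in the adult head and 22.9 in the adult tail. Its rise in the larva was lost without sample 1 or sample 3 (edgeR adjusted p = 0.0926 and 0.0890), and that in the head without sample 1 (edgeR adjusted p = 0.0612). cyp3c1l2 and cyp3c4 rose in the larva, to 10.2 and 6.38 CPM, against means of 2.34 ± 0.627 and 1.04 ± 0.241 at 24 hpf, and in the tail, to 10.7 and 3.26. The tail call of cyp3c4 was lost without sample 1 or sample 2 (edgeR adjusted p = 0.0876 and 0.0513).

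In family 4, cyp4t8 declined while the other 3 rose. cyp4t8, a fish fatty acid hydroxylase gene listed as cyp4 in the 24 hpf files, had 66.9, 56.0 and 81.0 CPM in the 3 samples at 24 hpf, 32.8 in the embryo pool, 15.3 in the larva, 21.4 in the adult head and 22.2 in the adult tail. Every later library was below the samples of 24 hpf, with log2 changes of -2.15 (SE 0.35, edgeR adjusted p = 0.00241), -1.67 (SE 0.33, edgeR adjusted p = 0.00406) and -1.62 (SE 0.33, edgeR adjusted p = 0.00595) in larva, head and tail. cyp4v2, whose human counterpart is mutated in a retinal dystrophy with lipid crystals, had 0.280, 0.138 and 0 CPM in the 3 samples at 24 hpf, 0.364 in the embryo pool, 19.3 in the larva, 9.54 in the adult head and 23.6 in the adult tail, and cyp4v7 had 0.504, 0.718 and 0.0565 CPM in the 3 samples at 24 hpf, 1.73 in the embryo pool, 7.19 in the larva, 5.45 in the adult head and 20.6 in the adult tail. Both rose in all 3 later groups, by 7.05, 6.04 and 7.34 for cyp4v2 and by 4.05, 3.65 and 5.57 for cyp4v7 on the log2 scale (edgeR adjusted p at most 0.00541). cyp4f3, a leukotriene hydroxylase gene in humans, reached 3.15 CPM in the head and 1.80 in the tail, against 0.140, 0.166 and 0.0565 at 24 hpf. Its larval rise to 0.810 CPM, on 8 counts, was lost whichever of the 3 samples of 24 hpf was left out (edgeR adjusted p from 0.0661 to 0.0797). The orphan gene cyp20a1, whose substrate is not established, was even among the samples of 24 hpf and lower later, with 53.4, 50.8 and 49.2 CPM in the 3 samples at 24 hpf, 28.8 in the embryo pool, 18.2 in the larva, 15.1 in the adult head and 30.1 in the adult tail. Its fall in the tail was lost without sample 1 or sample 2 (edgeR adjusted p = 0.12 and 0.0984). It was also lost with DESeq2 (adjusted p = 0.148), on FPKM with limma (adjusted p = 0.0966), with other scalings and with no filter. With library totals only its log2 change was -0.34 (edgeR adjusted p = 0.312).

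Of 23 other fatty acid and eicosanoid genes tested, 9 rose and 3 fell in the larva, 10 and 4 in the head and 8 and 4 in the tail, with median log2 changes of -0.23, 1.23 and 0.74. The desaturase gene fads2 reached 109.7 CPM in the head and 225 in the tail, against 2.43, 1.13 and 1.86 at 24 hpf. The fatty acid receptor gene pparaa had 7.70, 16.5 and 6.52 CPM in larva, head and tail, against 1.68, 1.22 and 1.55. The lipoxygenase gene alox12 fell in all 3 groups, to 27.8, 25.1 and 8.21 CPM, against 102, 84.2 and 96.1.

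The electron donors changed unevenly. POR (1 of 2), one of 2 IDs for the oxidoreductase that serves the microsomal enzymes, had 146, 202 and 171 CPM in larva, head and tail, against 17.6, 16.2 and 13.6 at 24 hpf, with log2 changes of 3.21, 3.67 and 3.44 (edgeR adjusted p = 0.000123, 4.30e-05 and 5.77e-05). Its interval differs between the annotations, and the part of the gene model was not tested. The other ID is not described here, so these values do not give the total for the oxidoreductase. The ferredoxin gene fdx1, which serves the mitochondrial enzymes, rose in the tail, to 113 CPM, against 42.9, 37.8 and 45.4, and fdx1b, known in zebrafish steroid-making cells, rose there to 2.47 CPM, against 0.196, 0.331 and 0.339. fdx1l fell in the larva and the head, to 14.0 and 10.49 CPM, against 39.5, 34.9 and 38.5. Of the 9 electron donor genes tested, 3 rose and 3 fell in the larva, 2 rose and 3 fell in the head, and 3 rose and 2 fell in the tail. The 9 summed to 394, 427 and 480 CPM in larva, head and tail, against 336 ± 35.8 at 24 hpf.

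The adult parts and the larva were also set against each other, within the same gene models but with 1 library each, so that the differences have no replicate check. A member was counted when the scaled counts differed at least 4-fold and both libraries held at least 10 counts together. Head against tail, 9 of 75 members were higher and 11 lower in the head, beside 22.9% and 14.3% of all genes compared. Those higher were cyp19a1b, cyp26b1, cyp27c1, cyp24a1, cyp39a1, cyp1b1, cyp1c1, cyp2aa4 and cyp2ad6. Those lower were cyp11a1, cyp17a1, cyp19a1a, cyp46a1, cyp2k18, cyp2k22, cyp2p8, cyp2p10, cyp2x7, cyp2x9 and cyp3c1l2. For cyp1b1 the head was 10.3-fold (exact 95% counting interval 5.58 to 21.3) and for cyp1c1 7.16-fold (exact 95% counting interval 5.25 to 9.95) higher. For cyp46a1 the head was 6.89-fold (exact 95% counting interval 5.13 to 9.41) and for cyp2p10 5.69-fold (exact 95% counting interval 4.18 to 7.89) lower.

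Against the larva, the head was past 4-fold higher for 8 and lower for 10 of 74 members, beside 7.95% and 5.34% of all genes. The tail was higher for 16 and lower for 12 of 75, beside 14.0% and 22.1%. The tail stood above the larva for cyp17a1 (11.8-fold, exact 95% counting interval 9.5 to 14.9), cyp46a1 (21.8-fold, exact 95% counting interval 13.4 to 37.9) and cyp26a1 (4.38-fold, exact 95% counting interval 3.35 to 5.79), and below it for cyp2ad3 (4.55-fold, exact 95% counting interval 3.66 to 5.70) and cyp26c1 (4.36-fold, exact 95% counting interval 2.82 to 7.0). The larva was past 4-fold higher than the pool for 31 and lower for 4 of 69 members, beside 14.4% and 3.63% of all genes. The 4 were cyp11a1, cyp26c1, cyp2aa9 and cyp2x6. The 31 include cyp7a1a and cyp2n13, at least 82.7-fold and 84.6-fold higher than the limit of 3 counts in the pool, cyp3a65, cyp2aa12 (13.8-fold, exact 95% counting interval 6.72 to 32.8) and cyp27a7 (9.30-fold, exact 95% counting interval 5.60 to 16.4).

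Compared with each other per length, in the deposited FPKM, the members changed places between groups. cyp2aa8 led in samples 1 and 2 of 24 hpf with 56.9 and 64.9 FPKM, and cyp2y3 led in sample 3 with 35.1 and in the pool with 30.4. cyp3a65 led in the larva with 58.2 FPKM, ahead of cyp2y3 with 47.7. cyp19a1b led in the head with 51.2 FPKM, ahead of cyp3c1 with 34.0. In the tail cyp3a65 and cyp11a1 were close, at 60.1 and 59.7 FPKM, ahead of cyp17a1 with 32.7. By CPM, with the mean of the samples taken for 24 hpf, 14 members were highest at 24 hpf, 3 in the embryo pool, 20 in the larva, 15 in the adult head and 27 in the adult tail. The 3 members not listed for 24 hpf were ranked over the other groups only. Members with at least 5 CPM numbered 25 to 29 in the 24 hpf samples, 25 in the embryo pool, 45 in the larva, 38 in the adult head and 42 in the adult tail. The shares of all genes are not given here for these counts, so they describe the members alone. The summed level of all members changed less than single genes did, at 1129 ± 244 CPM at 24 hpf, 602 in the embryo pool, 1039.9 in the larva, 948 in the adult head and 1378 in the adult tail.

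The calls were recomputed with each sample of 24 hpf left out in turn. In the larva 36 of the 44 called members, 25 higher and 11 lower, were called by edgeR in all 3 of these analyses. In the head 42 of 50, 29 higher and 13 lower, and in the tail 42 of 46, 30 higher and 12 lower, were called in all 3. Over every other scaling, filter and tool tried as well, apart from the restriction to equal gene intervals, 29 remained in the larva, 37 in the adult head and 41 in the adult tail. The shares of all called genes that remained are not given here, so these counts describe the members alone. Beside the calls named above, DESeq2 did not call CYP21A2 in the larva (adjusted p = 0.0908) and the head (0.0587), cyp2k6 in the larva (0.153) or cyp1c2 in the head (0.0843). limma-voom did not call cyp2k6 in the larva (adjusted p = 0.0597) or cyp2x7 in the larva (0.0741). limma on FPKM did not call cyp2aa8 in the larva (adjusted p = 0.0775).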

How the data were processed

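Extraction used TRIzol and library preparation a TruSeq RNA kit, per the labels' protocols. The submitters' processing notes name CASAVA 1.4, TopHat 1.4.1, Bowtie 0.12.7, HTSeq 0.5.3p3, Cufflinks 1.3.0 and the Zv9 genome. The sources used here do not state annotation release, strand setting or the handling of shared reads. The authors deposited read counts per gene and FPKM values per gene. Of 16 sample records, 12 are of 24 hpf, as 3 biological samples with 4 records each. Of the records, 7 have files, 1 for each 24 hpf sample and 1 for each other group, and the other 9 were not used here. Per-library depth is given above, and counting intervals cover counting error only.

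Counts of the 28364 gene IDs shared by all files were fitted in 1 model with 5 groups in edgeR 4.0.16 (R 4.3.3), with TMM factors, filterByExpr at a minimum count of 10 and the quasi-likelihood test. P-values were adjusted by Benjamini-Hochberg over 21128 genes and called under 0.05, with 2 residual degrees of freedom, from the 24 hpf samples. Alternatives were DESeq2 1.42.0, limma-voom 3.58.1, limma on log2(FPKM + 0.1) for genes above 0.5 FPKM, other scalings, no filter, equal gene intervals and leaving out each 24 hpf sample. The fitting scripts were tested on simulated data, with the same spread for every gene and changes only in genes above 1 CPM. Over the comparisons with 24 hpf, 2.99% to 8.96% of simulated 2-fold changes were recovered. For 4-fold changes 53.7% to 68.7% were recovered, and for 8-fold changes 87.9% to 93.9%. A member that was not called may therefore still differ from 24 hpf. Libraries of 1 each were compared as ratios of scaled counts. Members and gene lists were chosen with earlier results of these data known. Named were members of the hormone, vitamin and bile acid classes, other members reaching 20 CPM or with the largest changes, and the most abundant or most changed genes of each list. Other members, star, slc15a1b and the gonad and glia genes were named after their values were seen.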

Additional observations from a re-analysis of the deposited data

How the results depend on the processing

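Of 2730 member values under the alternatives, 1 called value reversed, 133 fell short of the threshold and 67 newly passed it. The reversed value is the larval change of cyp2aa12, which was -0.059 on FPKM with limma (adjusted p = 0.930), and the cause was not tested. With library totals only, the median log2 change over all genes moved to 0.16, 0.44, 0.53 and 0.30 for pool, larva, head and tail. In the pool, 6 members called became 1 with library totals (the higher CYP21A2), 3 with no filter, 10 with DESeq2, 0 with limma-voom (17 at an unadjusted p under 0.05) and 1 among genes of equal interval, and leaving out 1 sample of 24 hpf gave 0 to 17. Leaving out 1 sample gave 37 to 47 calls for the larva, 45 to 51 for the head and 43 to 50 for the tail. Restricting the genes to those of equal interval left 14, 18 and 10 calls in larva, head and tail, from 23 members. In the comparisons of single libraries, a limit of 2-fold gave 46 members for head against tail, 41 for head against larva and 47 for tail against larva, and a limit of 8-fold gave 7, 11 and 14, and 20 for larva against pool. Both changes follow from the limits themselves. The shares of all genes called or counted under these alternative settings are not given here. The counts therefore show only how the number of members depends on the setting. No paired analysis was possible because every group other than 24 hpf has 1 library. The 8017208 to 11045403 counts of the single libraries limit genes of low level, and differences there rest on 1 sample a group.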
